A study of Mus musculus with 6 samples.

Results

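The interleukin-1 (IL-1) family ligands and receptors examined here are 9 genes of the 43346 in the count table, chosen by name: *Il1a*, *Il1b*, *Il33* and *Il18*, which encode ligands, *Il1rn*, which encodes the receptor antagonist, and *Il1r1*, *Il1r2*, *Il1rl1* and *Il1rap*, which encode receptor chains. Polyadenylated RNA was sequenced from mouse adult fibroblasts (MAFs), which are primary ear cells of adult female C57BL6/J mice, in 3 control and 3 senescent samples. Senescence was brought on by an X-ray dose of 20 Gy followed by weeks of culture, and control cells had a sham irradiation. Both groups were wild type, were grown at 3% oxygen, and were given 100 nM dexamethasone for 2 hours, a glucocorticoid used to set the clocks of cultured cells to one phase. RNA was taken 12 hours later, so every value describes a single time point after a glucocorticoid. Nothing in the labels says that the samples came from separate animals or cultures, so p-values measure the spread between these samples, which may be technical.

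IL-1 family cytokines are among the earliest signals of tissue injury. IL-1α and IL-1β bind the receptor IL-1R1, which then recruits the accessory chain IL-1RAP, and the complex signals through MyD88 and the IRAK kinases to NF-kB. IL-1R1 is held in check by a receptor antagonist, which occupies it without signaling, and by the decoy receptor IL-1R2, which binds ligand but has no signaling domain. IL-33 uses the same accessory chain with its own receptor, ST2, the product of *Il1rl1*. In senescent cells, IL-1α is known as an upstream driver of the secretory phenotype.

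Total counts ranged from 50288454 to 82229553 per library. Levels are CPM, which are counts scaled to a common library size with a correction for composition, and a comparison between genes uses CPM per kilobase of gene length (RPKM). Values of the libraries of a group stand in the order of their replicate numbers, and ± gives the SD over 3 libraries. Senescent replicate 3 stood apart from the other senescent libraries: the squared count differences had a median of 24.8 and 33.2 times the chance value against senescent replicates 1 and 2, compared with 2.33 between those. Among control libraries, the same medians were 6.04 and 5.17 for replicate 1 against replicates 2 and 3, compared with 1.81 between those. The fibroblast label was checked with 8 marker genes, all of which were detected in both groups and summed to between 17576 and 19648 CPM in control and between 6495 and 7742 CPM in senescent cells. Of these 8 markers, 3 rose and 5 fell in senescent cells (adjusted p under 0.05), compared with 36.2% and 34.1% of all tested genes. The collagen gene *Col1a1* fell from 4435 ± 512 CPM to 763 ± 212 CPM, while *Dcn* rose from 56.6 ± 0.377 CPM to 643 ± 65.2 CPM. *Lum* and *Thy1* also rose, with log2 fold changes of 0.85 and 1.47. In bulk samples, fewer cells of a type and less RNA per cell cannot be told apart.

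The study examined binding of the clock factor BMAL1 at E-boxes and at AP-1 sites, so the promoters of the members were searched for both. RefSeq (GRCm38.p6, the assembly that mm10 names) gives 14 start sites for the 9 members, and each window ran from 250 bases before to 50 bases after a start. The AP-1 site TGACTCA, read on both strands, occurred once each in a window of *Il1a* and of *Il1rn*, compared with 5.20% of the 32851 windows of all genes. The E-box CACGTG, whose strands read the same, occurred only at *Il1r2*, where 1 window held it at 2 places, and 7.15% of all windows held it. The glucocorticoid receptor site, GNACA and TGTNC with 3 bases between them, was in none of the 14 windows (0.475% of all windows), and the NF-kB consensus was in 1 of them, at *Il1r1* (8.46% of all windows). These matches describe letters in a window, and binding at them was not analysed here. The windows with an AP-1 site or an E-box are shown with the matched letters in capitals, followed by both windows of *Il1rl1*, the most abundant member, in which none of the motifs was found. Each is the 250 bases before the start, read 5′ to 3′ on the strand of the gene.
Il1r2 (chr1:40085843-40086092, plus strand): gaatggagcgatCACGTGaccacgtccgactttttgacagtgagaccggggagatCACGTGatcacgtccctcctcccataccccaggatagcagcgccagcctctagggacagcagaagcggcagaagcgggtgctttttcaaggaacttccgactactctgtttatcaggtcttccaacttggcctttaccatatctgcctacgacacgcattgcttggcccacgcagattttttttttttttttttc
Il1a (chr2:129309973-129310222, minus strand): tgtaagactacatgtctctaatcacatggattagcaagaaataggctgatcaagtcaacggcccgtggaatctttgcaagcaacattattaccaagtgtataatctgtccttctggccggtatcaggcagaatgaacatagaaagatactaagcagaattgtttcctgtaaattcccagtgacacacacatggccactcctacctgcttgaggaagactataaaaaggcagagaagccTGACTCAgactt
Il1rn (chr2:24336610-24336859, plus strand): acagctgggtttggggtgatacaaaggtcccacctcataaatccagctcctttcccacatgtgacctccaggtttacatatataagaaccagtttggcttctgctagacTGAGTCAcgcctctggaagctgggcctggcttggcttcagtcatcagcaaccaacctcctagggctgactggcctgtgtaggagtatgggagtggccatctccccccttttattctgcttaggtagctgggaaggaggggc
Il1rl1, first start (chr1:40429320-40429569, plus strand): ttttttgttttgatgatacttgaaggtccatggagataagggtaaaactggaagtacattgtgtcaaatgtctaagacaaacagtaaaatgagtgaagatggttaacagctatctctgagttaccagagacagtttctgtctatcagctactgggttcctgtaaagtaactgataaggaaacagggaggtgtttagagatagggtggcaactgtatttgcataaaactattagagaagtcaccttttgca
Il1rl1, second start (chr1:40439379-40439628, plus strand): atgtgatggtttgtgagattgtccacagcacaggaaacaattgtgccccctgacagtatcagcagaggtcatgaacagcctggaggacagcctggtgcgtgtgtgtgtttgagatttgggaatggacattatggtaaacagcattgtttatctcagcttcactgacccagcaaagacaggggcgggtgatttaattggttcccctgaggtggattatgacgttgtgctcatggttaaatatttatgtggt

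Of the 9 members, 7 had enough counts for a test, and *Il1a* and *Il1b* did not. Senescent cells had more *Il33*, *Il1r2* and *Il1rl1* RNA and less *Il18*, *Il1rn*, *Il1r1* and *Il1rap* RNA than control cells, and each difference passed an adjusted p of 0.05 in the quasi-likelihood test of edgeR. That test called 70.3% of the 17589 tested genes, 36.2% higher and 34.1% lower, so a call as such does not set the members apart from other genes. The study's methods set a threshold of 0.05 on the unadjusted p together with a change of more than 2-fold. *Il33* and *Il1r2* were higher and *Il18* and *Il1r1* lower by this rule, where 30.1% of tested genes passed, 17.8% higher and 12.3% lower. The paper's results name a far smaller p cutoff for the same comparison, with the same fold change. The unadjusted p of *Il1r2*, 0.000641 in the same edgeR test, lies above that cutoff. Control and senescent values did not overlap for any of the 7 tested members, as for 75.3% of tested genes. *Il1r2* passed the filter on low counts only through its senescent libraries.

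**Figure D1:**
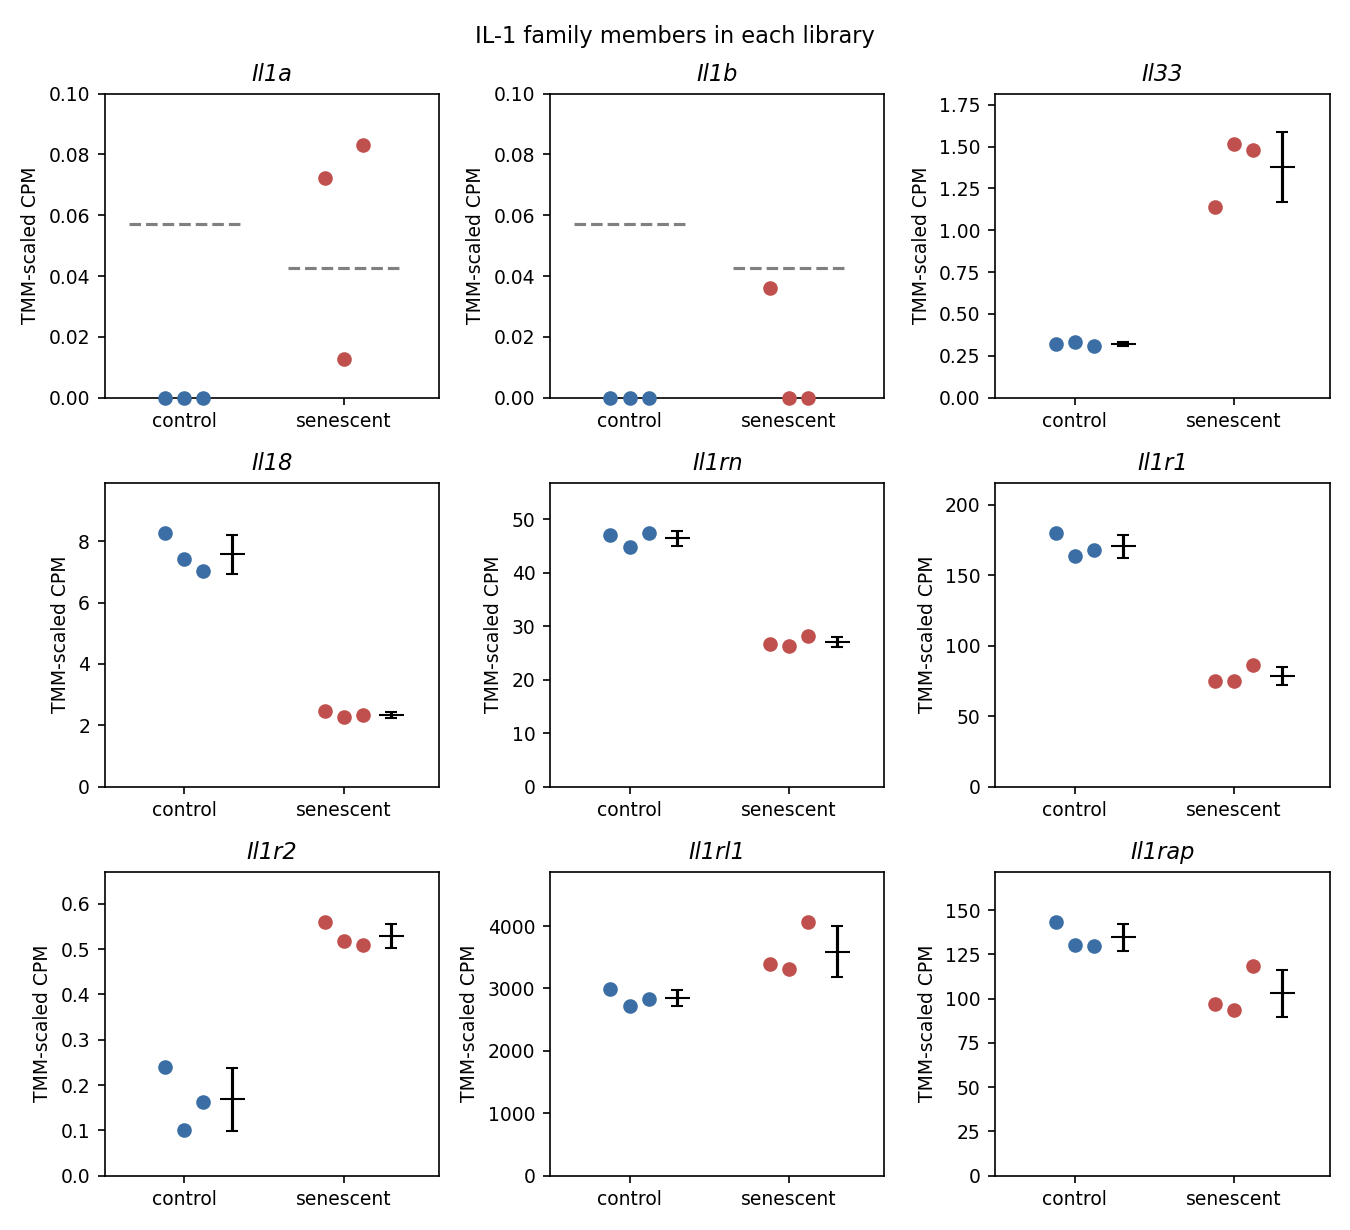
Level of each member in TMM-scaled CPM (linear axes from 0), 1 point per library, with the mean ± SD (n = 3 per group) beside the points of the 7 tested members. Dashed lines for Il1a and Il1b mark the level that 3 counts per library give (0.0572 CPM for control and 0.0425 CPM for senescent cells); Il33, Il1r2 and Il1rl1 lie higher and Il18, Il1rn, Il1r1 and Il1rap lower in all 3 senescent libraries.

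The genes for the classical agonists were almost without counts. *Il1a* (ENSMUSG00000027399, chromosome 2 of mm10 from 129299610 to 129309972) had 0 counts in every control library and 4, 1 and 7 counts in senescent libraries. Only senescent replicates 1 and 3 exceeded 3 counts, the upper limit for a library at 0, and the senescent mean of 0.0559 CPM lay just under the limit of 0.0572 CPM for the control libraries, so no fold is given. *Il1b* (chromosome 2 from 129364570 to 129371139), whose product is the main circulating form of IL-1, had 0 counts throughout the control group, against 2, 0 and 0 counts in senescent libraries. No library exceeded 3 counts, and a difference in *Il1b* RNA was not detectable at this depth. These limits cover counting error alone. *Il1a* shares its position with *Gm14023*, a noncoding gene on the other strand with 45 to 86 counts per library, and whether the counting used strand is not given in the sources used here, so reads in the shared part cannot be assigned with certainty. *Il1b* likewise overlaps the antisense gene *Il1bos*, which had 4 counts in every senescent library and at most 1 in a control library.

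*Il33* (ENSMUSG00000024810, chromosome 19 from 29925114 to 29960718) encodes an alarmin that is stored in the nucleus and released from damaged cells. It was at 0.321, 0.335 and 0.307 CPM in control libraries and at 1.14, 1.51 and 1.48 CPM in senescent libraries, from 15 to 20 counts and 63 to 125 counts per library. Every senescent library lay above every control library, with the lowest value in senescent replicate 1. The rise was 4.30-fold, or 2.10 ± 0.20 (standard error) on the log2 scale, with an adjusted p of 3.56e-05 in the same edgeR test. Among tested genes ordered by RPKM, *Il33* moved from position 15644 to position 14031 of 17589, so it remained among the weakly expressed genes.

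*Il18* (ENSMUSG00000039217, chromosome 9 from 50575273 to 50581837) encodes a ligand that, like IL-1β, is made as a precursor and cut by caspase-1. It was at 8.26, 7.41 and 7.03 CPM in control libraries and at 2.45, 2.26 and 2.32 CPM in senescent libraries. The senescent values lay close to each other and far below the control values. The level fell 3.23-fold (log2 fold change -1.69, standard error 0.10, adjusted p = 3.06e-06, same edgeR test), the largest decrease among the 7 tested members. The count table used a gene model of 714 bases, and GENCODE M21 begins the gene farther upstream, at 50554827, so reads upstream of the table's start were outside the counted gene.

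*Il1rn* (ENSMUSG00000026981, chromosome 2 from 24336853 to 24351494), the gene of the receptor antagonist, was expressed in the near absence of *Il1a* and *Il1b* RNA. It was at 47.1, 44.8 and 47.3 CPM in control libraries and at 26.6, 26.2 and 28.1 CPM in senescent libraries. The groups were well separated, with little spread within either. The level fell 1.72-fold (log2 fold change -0.78, standard error 0.06, adjusted p = 1.35e-05, same edgeR test). A ratio of *Il1rn* to *Il1a* was not computed because *Il1a* had fewer than 4 counts in at least 1 library of each group. Secreted and intracellular forms of the antagonist start at different first exons, and counts per gene do not separate them.

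*Il1r1* (ENSMUSG00000026072, chromosome 1 from 40225080 to 40317257), the signaling receptor for IL-1α and IL-1β, was at 180, 164 and 168 CPM in control libraries and at 75.3, 74.7 and 86.2 CPM in senescent libraries. Senescent replicate 3 was the highest of its group and still lay below every control library. The level fell 2.17-fold (log2 fold change -1.12, standard error 0.08, adjusted p = 5.97e-06, same edgeR test). Reads of *RP24-317P24.1*, an unclassified gene within *Il1r1*, numbered at most 51 in a library. *Il1r1* RNA was abundant in both groups and ranked 1067th by CPM in control and 2819th in senescent cells among the 17589 tested genes.

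The gene of the decoy receptor, *Il1r2* (ENSMUSG00000026073, chromosome 1 from 40074079 to 40125231), changed in the other direction at a far lower level. It had 12, 6 and 8 counts in control libraries, against 31, 41 and 43 counts in senescent libraries, which were 0.241, 0.10 and 0.163 CPM and 0.559, 0.517 and 0.509 CPM. The groups did not overlap, and the control libraries differed from each other by more, relative to their level, than the senescent ones. The rise was 3.17-fold (log2 fold change 1.66, standard error 0.30, adjusted p = 0.00148, same edgeR test). Within each library, the level of *Il1r2* per length was 0.00446, 0.00204 and 0.00324 times that of *Il1r1* in control libraries and 0.0248, 0.0231 and 0.0197 times in senescent libraries. This ratio was 7.25-fold higher in senescent cells (difference of 2.86 on the log2 scale, two-sided exact permutation test, p = 0.1, the smallest that 3 against 3 samples allow). Even so, decoy receptor RNA remained a small share of that of the signaling receptor in all 6 libraries.

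A noncoding antisense gene, *Gm16894*, lies within *Il1r2* on the minus strand from 40076228 to 40085851, so that its first bases fall within the *Il1r2* promoter window shown above, whose start lies inside the gene interval of the table. It had 21, 11 and 14 counts in control libraries, against 5, 8 and 4 counts in senescent libraries. Its level was lower in senescent cells (log2 fold change -1.88, standard error 0.45, adjusted p = 0.00619, same edgeR test), opposite to *Il1r2*. *Gm16894* passed the filter on low counts only through its control libraries, and *Il1r2* only through its senescent libraries. A difference was therefore built into the selection of each gene. Because the strand setting of the counting is not given in the sources used here, reads where the genes share bases cannot be told apart, and both genes were near the lower end of what the depth can measure.

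*Il1rl1* (ENSMUSG00000026069, chromosome 1 from 40429570 to 40465415) encodes ST2, the IL-33 receptor, and was first found as a gene that growth factors induce in fibroblasts. It was at 2984, 2720 and 2828 CPM in control libraries, against 3397, 3317 and 4063 CPM in senescent libraries. Senescent replicate 3 stood above the other senescent libraries, and the lowest senescent library lay above the highest control library. The increase was 1.26-fold (log2 fold change 0.34, standard error 0.09, adjusted p = 0.00841, same edgeR test). Without senescent replicate 3, the log2 fold change was 0.25 with an adjusted p of 1.88e-05 (same edgeR test).

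The level of *Il1rl1* set it apart from the other members more than its change did. It took between 0.263% and 0.292% of all counts in the control libraries and between 0.340% and 0.417% in the senescent libraries. By CPM it ranked 17th of 17589 tested genes in control and 10th in senescent cells, and by RPKM 90th and 44th. Mast cells are known for high levels of ST2. Their 7 markers summed to at most 0.0204 CPM in a control library and to between 0.235 and 0.391 CPM in senescent libraries, and all were under the filter. Of the 7 markers, *Mcpt4* and *Fcer1a* had 0 counts in all 6 libraries. *Kit* had 1, 0 and 0 counts in control libraries, against 8, 21 and 19 in senescent libraries. *Cma1* had 1 count in the control group and 11 in the senescent group. *Cpa3*, *Tpsb2* and *Ms4a2* had 0 counts in every control library and at most 5 in a senescent library. The part of mast cells in the level or the change of *Il1rl1* was not tested. *Il1rl1* RNA can encode a membrane receptor or a shorter, secreted form that binds IL-33 without signaling. Of the 5 GENCODE M21 transcripts of the gene, 2 run to its 3′ end and 3 stop earlier, their starts include positions within a few bases of both promoters shown above, and the counts per gene sum all of them.

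*Il1rap* (ENSMUSG00000022514, chromosome 16 from 26581704 to 26730117), the accessory chain shared by the IL-1 and IL-33 receptors, was at 143, 131 and 129.9 CPM in control libraries and at 97.0, 93.7 and 118 CPM in senescent libraries. Senescent replicate 3 came closest to the control libraries without reaching them. The level fell 1.31-fold (log2 fold change -0.38, standard error 0.10, adjusted p = 0.00770, same edgeR test).

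**Figure D2:**
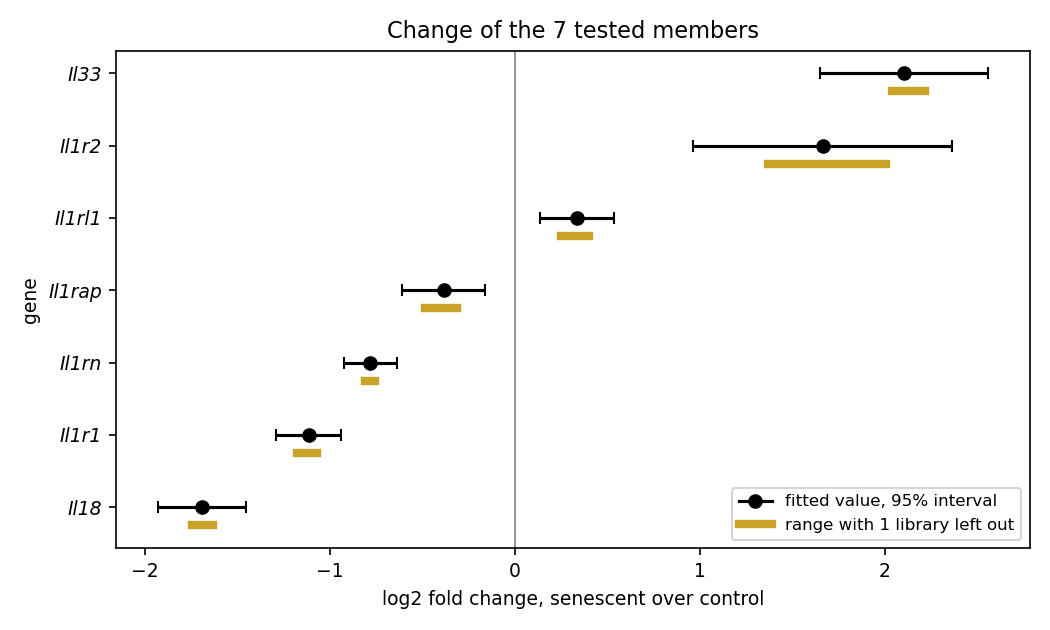
Log2 fold change (senescent over control) of the 7 tested members with 95% intervals from edgeR's quasi-likelihood fit (black), and the range of the fitted value when each of the 6 libraries was left out in turn (yellow bar below each). Values run from -1.69 for Il18 to 2.10 for Il33, and no interval or range crosses 0.

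Ratios within a library, which do not depend on library scaling, were added for the receptor chains after the values had been seen. Relative to the shared chain *Il1rap*, the level of *Il1rl1* per length was 34.3, 34.3 and 35.9 in control libraries and 57.7, 58.3 and 56.6 in senescent libraries. The ratio of *Il1r1* to *Il1rap* went the other way, from 2.24, 2.24 and 2.31 in control libraries to 1.39, 1.42 and 1.30 in senescent libraries. Within a library, *Il1rl1* exceeded *Il1r1* by 15.3-, 15.3- and 15.5-fold in control libraries and by 41.6-, 41.0- and 43.5-fold in senescent libraries. The control and senescent values did not overlap in any of the 3 ratios, and senescent replicate 3 was the lowest of its group in both ratios to *Il1rap* and the highest in the ratio of *Il1rl1* to *Il1r1*. Each gave p = 0.1 in a two-sided exact permutation test, the smallest value possible with 3 against 3 samples.

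In RPKM, the control order of the members was *Il1rl1* (412.5 ± 19.2), *Il1r1* (26.8 ± 1.29), *Il1rap* (11.8 ± 0.659), *Il18* (10.6 ± 0.882), *Il1rn* (8.39 ± 0.250), *Il33* (0.111 ± 0.00488) and *Il1r2* (0.0881 ± 0.0368). *Il1rap* and *Il18* overlapped in this order, as did *Il33* and *Il1r2*, and *Il1a* and *Il1b* were both at 0 counts. In senescent cells, the order was *Il1rl1* (521 ± 59.4), *Il1r1* (12.4 ± 1.01), *Il1rap* (9.07 ± 1.17), *Il1rn* (4.88 ± 0.177), *Il18* (3.28 ± 0.139), *Il33* (0.477 ± 0.0725) and *Il1r2* (0.277 ± 0.0140), with no overlap between neighbors among these 7. The change in order was that of *Il18* and *Il1rn*. RPKM depends on the gene lengths in the table, which for *Il18* is the short model named above.

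**Figure D3:**
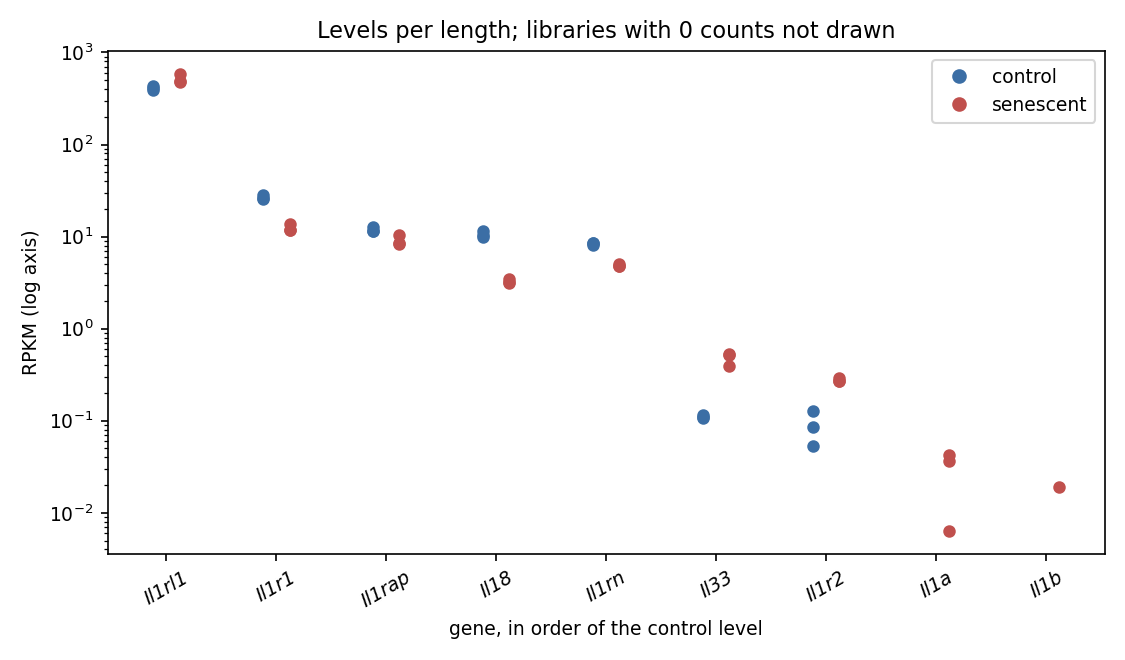
RPKM of each member in each library (log axis), in the order of the control mean, control in blue and senescent in red; libraries with 0 counts are not drawn. Il1rl1 lies between 395 and 589 RPKM in the 6 libraries, more than 10-fold above every other member, and Il1a and Il1b lie at the bottom.

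Markers of other cell types moved between the groups as well. The sum of 6 endothelial markers was between 2.55 and 2.93 CPM in control and between 8.16 and 8.71 CPM in senescent libraries, and 5 of 5 tested markers rose, of which 3 passed the filter only through their senescent libraries. The sum of 8 macrophage markers was between 9.10 and 9.61 CPM in control and between 19.6 and 22.5 CPM in senescent libraries, with 6 of 7 tested markers higher, of which 3 passed only in this way. Among markers that passed in both groups, 2 of 2 endothelial and 3 of 4 macrophage markers rose. Of all tested genes, 36.2% were called higher. *Ptprc*, the pan-leukocyte gene CD45, was at 7 to 12 counts in the control and 80 to 128 counts in the senescent libraries. These shifts ran in the same direction as *Il33* and *Il1r2*, which lie in the same low range, and their part in the change of both genes was not tested. The sum of 8 keratinocyte markers went from between 16.4 and 17.0 CPM to between 9.53 and 9.94 CPM, in the direction of *Il18* and *Il1rn*, both of which keratinocytes express. Among them *Trp63* fell, from 13.1 ± 0.346 to 4.17 ± 0.521 CPM. The other 7 markers summed to between 3.23 and 4.13 CPM in control and, in the other direction, to between 4.75 and 6.10 CPM in senescent libraries. Of these, *Cdh1* rose (log2 fold change 1.98), and *Krt5* and *Krt10* were not called (0.58 and -0.01). *Krt14* had at most 12 counts and *Dsg3* at most 2 counts in a library. The part of keratinocytes in the change of *Il18* and *Il1rn* was not tested. Of 6 T cell markers, 5 had 0 counts in all control libraries, and only *Trac*, through its senescent libraries, was tested (log2 fold change 2.27).

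Of the receptor members, *Il1r2*, *Il1r1* and *Il1rl1* lie in a cluster of 6 receptor genes on chromosome 1, all on the plus strand. In order along the chromosome, the log2 fold changes were 1.66 for *Il1r2*, -1.12 for *Il1r1*, -0.91 for *Il1rl2* (the IL-36 receptor), 0.34 for *Il1rl1*, -1.71 for *Il18r1* and -0.15 for *Il18rap* (the IL-18 receptor chains). The adjacent genes *Il1r1* and *Il1rl2* both fell, between *Il1r2* and *Il1rl1*, which rose, and *Il18rap* was not called (adjusted p = 0.153, 95% interval from -0.36 to 0.05, same edgeR test). *Il18r1* begins 136 bases after the annotated end of *Il1rl1* and averaged 5.32 ± 0.315 CPM in control libraries, against 1.61 ± 0.244 CPM in senescent libraries, so it fell beside a far more abundant neighbor that rose. *Il18r1* and the gene of its ligand, *Il18*, thus both fell.

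**Figure D4:**
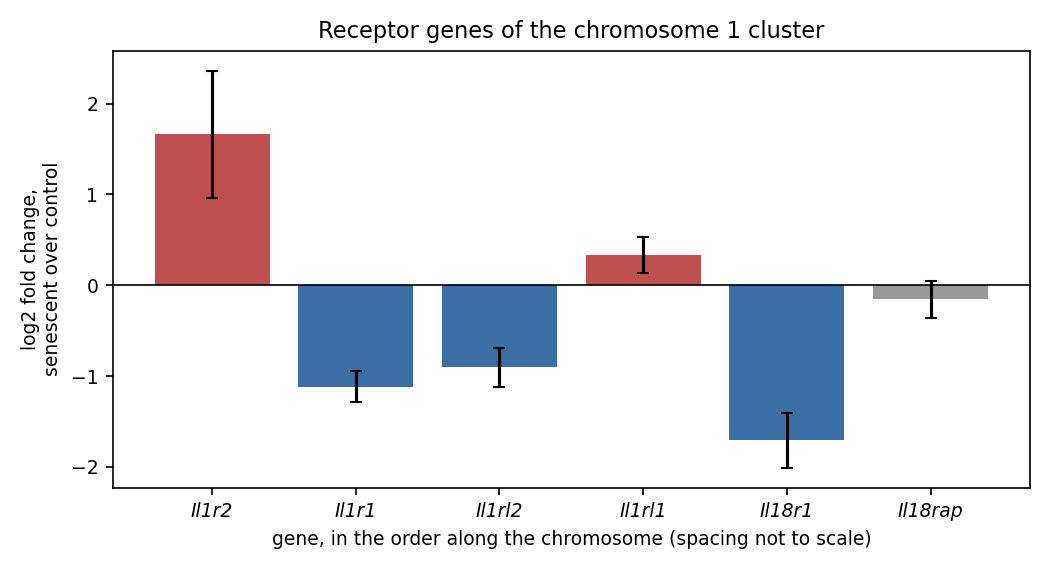
Log2 fold change (senescent over control) of the 6 receptor genes of the chromosome 1 cluster in their order along the chromosome, with 95% intervals; bars start at 0, red and blue mark an adjusted p under 0.05, and grey marks Il18rap, which was not called. Il1r2 and Il1rl1 rose and Il1r1, Il1rl2 and Il18r1 fell.

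Other genes of the pathway were taken from lists written from general knowledge. Of 5 further ligands and the IL-18 binding protein, 2 were tested and both rose, *Il1f9* having passed the filter only through its senescent libraries. A call of higher was given to 36.2% of all tested genes. *Il1f9*, which encodes IL-36γ, had 0 counts throughout the control group, against 52, 54 and 73 counts in senescent libraries, at least 14.5-fold higher than 3 counts per library allow. *Il18bp*, whose product neutralizes IL-18, rose by 0.78 on the log2 scale, from 1.94 ± 0.197 to 3.31 ± 0.178 CPM, while its ligand gene *Il18* fell. *Il1f6*, *Il1f8*, *Il1f5* and *Il1f10* had at most 3 counts in any library. Of the 6 other receptor genes, 5 were tested, with a median log2 fold change of -0.15. The share called was 60%, compared with 70.3% of all tested genes. Besides *Il1rl2* and *Il18r1*, which fell, *Sigirr*, an inhibitory receptor that passed the filter only through its senescent libraries, was called higher (3 to 7 counts in control and 10 to 17 in senescent libraries, log2 fold change 0.98, adjusted p = 0.0345, same edgeR test). That call was lost whenever any 1 of the 6 libraries was left out. *Il1rapl1* was not called (log2 fold change 0.28), and *Il1rapl2* had at most 3 counts in a library.

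Among 20 genes for inflammasomes and for the cutting and release of IL-1, 16 were tested, of which 6 rose and 4 fell, with a median log2 fold change of 0.10, compared with 0.01 over all tested genes. The share called was 62.5%, compared with 70.3% of all tested genes, 36.2% higher and 34.1% lower, so the counts do not set the list apart. *Aim2* and *Nlrp3* passed the filter on low counts only through their senescent libraries, and of the other 14 genes 4 rose and 4 fell, with a median of 0.07. *Aim2*, a sensor of cytosolic DNA, had 0, 0 and 1 counts in control libraries, against 72, 94 and 127 counts in senescent libraries, a 212-fold ratio with a 95% counting interval from 37.8 to 8405. *P2rx7*, the ATP-gated channel, and *Nek7*, a partner of NLRP3, had log2 fold changes of 0.76 and 1.15. *Gsdmd*, which encodes the pore protein gasdermin D, *Casp8* and the adaptor gene *Pycard* fell, with log2 fold changes of -0.47, -0.35 and -0.49. *Casp1* and *Nlrp3* were named after their values had been seen: *Casp1* fell (log2 fold change -0.57, adjusted p = 0.0180) and *Nlrp3* rose from 1 to 4 counts to 24 to 32 counts per library (8.59-fold, adjusted p = 0.000262, same edgeR test). *Nlrp1a*, *Nlrp1b*, *Nlrc4* and *Mefv* were below the filter.

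Of 22 genes that carry the signal from the receptors, all were tested, 10 rose and 6 fell, with 0.13 as the median log2 fold change. The share called, 72.7%, was near the 70.3% of all tested genes, so the counts do not set the list apart. *Irak2*, a kinase of the receptor complex, rose by 1.61 on the log2 scale, from 12.7 ± 0.494 to 38.7 ± 0.804 CPM. *Ikbkg*, the regulatory subunit of the IκB kinase, and *Tollip*, an adaptor that dampens the pathway, had log2 fold changes of 0.99 and 0.52. *Peli2*, a ubiquitin ligase, fell from 43.0 ± 0.404 CPM to 16.2 ± 0.0311 CPM, and *Tab2* and *Irak4* had log2 fold changes of -0.74 and -0.67.

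The 25 genes known to respond to IL-1 in fibroblasts were all tested, of which 21 rose and 1 fell, and 15 of the higher genes passed the 2-fold threshold. The share called was 88%, compared with 70.3% of all tested genes. Of all tested genes, 36.2% were called higher, and 17.8% were higher by the 2-fold threshold. Of the 25, *Cxcl2*, *Ccl20*, *Csf2*, *Csf3*, *Mmp13* and *Saa3*, which had at most 11 counts in a control library, passed the filter on low counts only through their senescent libraries, so that a difference was built into their selection. Over the other 19 genes, 15 rose and 1 fell, with a median log2 fold change of 0.80, compared with -0.06 over the 15130 genes that reached the same limit in both groups. Of those 15130 genes, 4837 rose and 5640 fell. With the 6 genes included, the median was 1.68. *Mmp3*, *Lif* and *Ccl2* had the smallest p, with log2 fold changes of 5.51, 6.03 and 2.73. *Steap4* fell (log2 fold change -0.39), and *Cxcl5*, *Zc3h12a* and *Bdkrb1* were not called, with log2 fold changes of -0.13, 0.21 and -0.17. All of these genes also respond to other signals, so the list does not measure IL-1 activity. In the same libraries *Il1a* and *Il1b* were at or near 0 counts and *Il1r1* RNA was lower. The part of IL-1 in the change of the 21 higher genes was not tested.

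**Figure D5:**
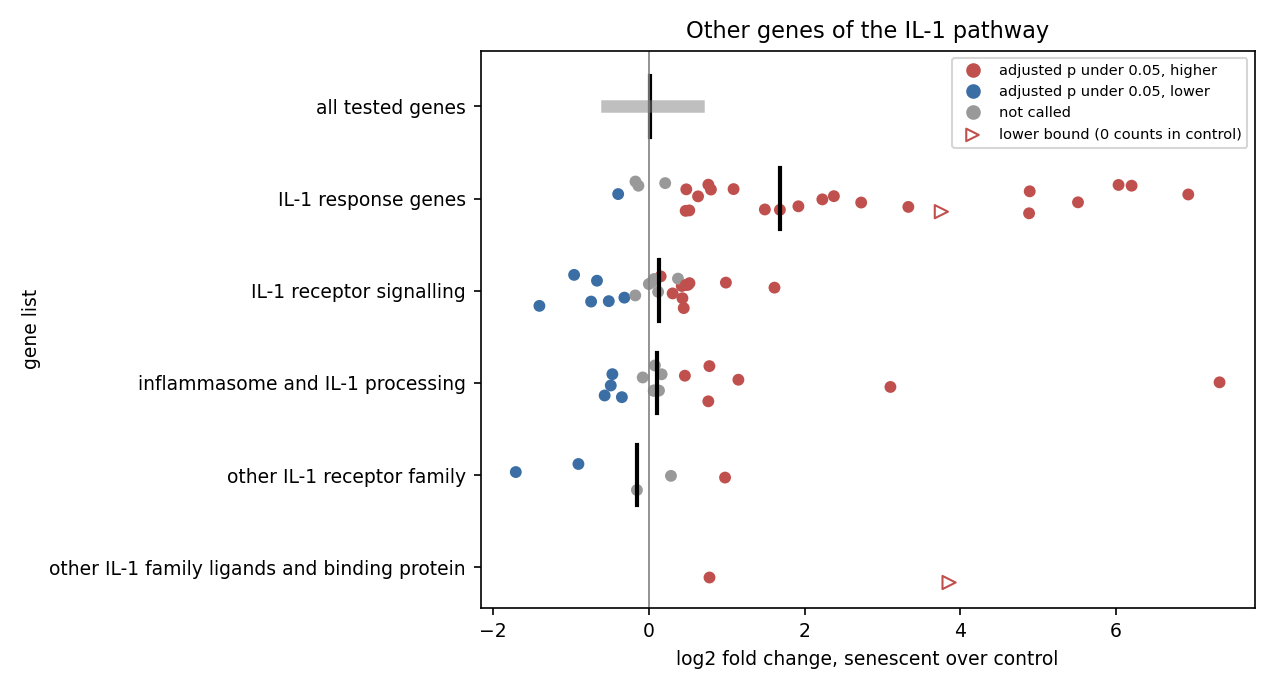
Log2 fold change (senescent over control) of each tested gene of the 5 lists, with red and blue for an adjusted p under 0.05, grey for genes not called, and open triangles for the lower bounds of Il1f9 and Ccl20, which had 0 counts in control. Black lines mark medians, drawn for lists of more than 2 tested genes (-0.15, 0.10, 0.13 and 1.68 for other receptors, processing, signaling and response genes, the last 0.80 without the 6 genes that passed the filter only through senescent libraries), and the grey bar spans the middle 50% of all tested genes.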

How the data were processed

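The 9 members, the gene lists and the tests were chosen with earlier results of these data known. RNA-seq of 3 control and 3 senescent samples was used. Libraries were made with a stranded kit from 200 ng of RNA. The authors ran MAPRSeq, in which STAR aligned the read pairs to mm10 and Subread produced gene counts, and these raw counts were deposited. The strand setting and the handling of multi-mapping reads are not given in the sources used here. The gene lengths are those of the deposited table.

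Genes were kept with filterByExpr (17589 of 43346), scaled by TMM (factors 0.968 to 1.03) and tested by quasi-likelihood in edgeR 4.0.16 under R 4.3.3 (robust, two-sided, group as single factor, Benjamini-Hochberg adjustment over all tested genes). CPM and RPKM were computed here from the counts. A fold against 0 counts is a lower bound, set against 3 counts per library. Reads carried no molecular identifiers, so intervals of counts cover counting error alone. Levels within a library were compared by exact permutation tests. The text names all members, up to 3 genes per pathway list and direction with the smallest p, genes under the filter, and the genes with the most similar profile. The main test did not pair samples by replicate number. The test was tried on simulated data with 17382 genes tested. It recovered 199 of 200 changed genes (99.5%) with 10 false calls. In the deposited data, 12365 of 17589 tested genes were called, and recovery with so many called genes was not tested. Alternatives were RLE scaling, library size alone, 2 other filters, DESeq2 1.42.0, the test without its robust option, a replicate term, and each library left out.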

Additional observations from a re-analysis of the deposited data

How the results depend on the processing

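All 7 tested members kept their direction and their call under RLE scaling, library size alone, no filter, DESeq2, the non-robust test and each library left out. The exception was a stricter filter, 10 counts or more in each library, which removed *Il1r2*. With 1 library left out, 7 members were called each time, and the log2 fold change of *Il1rl1* ranged from 0.25 to 0.40 with an adjusted p of at most 0.0381, that of *Il1rap* from -0.49 to -0.31, and that of *Il1r2* from 1.37 to 2.01 (edgeR's quasi-likelihood test). By the methods threshold, 1 member in place of 2 was higher under the stricter filter. Without a filter, *Il1a* was tested and had an adjusted p of 0.0304 (same edgeR test) on its 12 senescent counts, and *Il1b* an adjusted p of 0.384. Under the stricter filter, 15 in place of 21 response genes and 4 in place of 6 processing genes were higher, because genes with few control counts were removed. Of the other ligands, 1 in place of 2 was higher under the stricter filter. Among the other receptors, 0 genes in place of 1 were higher without a filter, under the stricter filter, in DESeq2, with the replicate block and with any library left out (lowest 0, highest 0). The gene concerned is *Sigirr*, and the stricter filter removed it, while the cause of the other losses was not tested. With 1 library left out, the response genes that were lower numbered 0 to 2 (2 without senescent replicate 3) and the processing genes that were lower 2 to 4 (2 without control replicate 2). *Steap4*, the response gene that fell, lost its call without control replicate 1 or without senescent replicate 1 or 2.

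Samples with the same replicate number did not all deviate together (correlations of -0.145, 0.135 and -0.120 for numbers 1, 2 and 3 over tested genes). Samples of number 2 correlated best with their own number, and those of numbers 1 and 3 did not. With so few libraries, these correlations cannot decide whether the samples were paired. With the replicate block, 7 members were still called and 11624 in place of 12365 genes were called in all. For the ratios, an exact sign permutation test within numbers cannot go below p = 0.25, which each of the 4 ratios gave. The depth limits what can be said of *Il1a* and *Il1b*, which were not tested, and of *Il1r2* and *Sigirr*, whose calls rest on few counts.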

Other observations

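For each tested member, the tested genes with the most similar profile were found, measured by the root mean square difference of log2 CPM over the 6 libraries after each gene was centred on its own mean, among the 12958 genes averaging 100 counts or more. *Ric1* and *D15Ertd621e* were closest to *Il1rl1* (0.0121 and 0.0132), *Ccdc163* and *Prune* to *Il1rn* (0.0122 and 0.0191), *Snx5* and *Vcan* to *Il1rap* (0.0184 and 0.0231) and *Gabpb2* and *Hnrnpa1* to *Il1r1* (0.0238 and 0.0301). *Smoc2* and *Crlf3* were closest to *Il18* (0.0485 and 0.0550), *Cited2* and *Skil* to *Il33* (0.0963 and 0.110) and *Dhh* and *Adcy1* to *Il1r2* (0.108 and 0.169). The measure mainly reflects the difference between the groups, and the 6 libraries share their depth and scaling. None of these neighbors is a member of the family. *Il18*, *Il33* and *Il1r2*, which had the largest distances, also had the fewest counts of the tested members.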
